A study of Mus musculus with 12 samples.

Results

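Transcripts of 8 genes of neurotrophin and GDNF family signalling were followed: the receptor genes Ret, Gfra1, Gfra2, Gfra3, Ntrk2, Ntrk3 and Ngfr, and the ligand gene Bdnf. They were taken by symbol from the read count tables, and 8 of 8 were found among 44345 names and had enough reads to be tested in both preparations. The libraries came from dorsal root ganglia (DRG), which hold the cell bodies of the body's sensory neurons, of C57BL/6 mice aged 5 to 8 weeks. Mice spent 10 days either in environmental enrichment (EE), a cage setting with more stimuli, or in standard housing (SH), and ganglia L4 to L6, which feed the sciatic nerve, were taken. The 4 groups were neurons cut out of sections by laser from EE mice and from SH mice, and whole ganglia from EE mice and from SH mice, with 3 libraries each (12 in all). Captured neurons were at least 30 µm wide and came from 3 mice per library, and whole ganglia were pooled from 2 mice per library. The comparison asked which transcripts differed with housing. The labels mention no injury, although whole-ganglion column names include "Sham" without any explanation. Nor do they say whether 2 libraries of the same group share mice. The p-values therefore rest on how far apart these libraries were, part of which may be technical.

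Neurotrophins signal through Trk receptor kinases, each with its preferred ligand, while p75 (the product of Ngfr) binds all neurotrophins. The GDNF family signals through the kinase Ret, which needs a lipid-anchored GFRα co-receptor to bind its ligand: GFRα1 for GDNF, GFRα2 for neurturin and GFRα3 for artemin. In the DRG these receptors divide the neurons into kinds. TrkC marks proprioceptors, TrkB marks A-delta low-threshold mechanoreceptors, Ret with GFRα2 marks non-peptidergic nociceptors and unmyelinated low-threshold mechanoreceptors (C-LTMR), and GFRα3 lies mostly in peptidergic nociceptors.

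Reads in genes numbered 19296230 to 29434351 per captured library and 11343579 to 17036481 per whole-ganglion library. Transcripts of small neurons were present in the captured libraries, although 30 µm was the lower limit of width. The summed level of 9 markers of Mrgprd nociceptors, which are small cells, was 1970 to 2449 CPM (reads of a gene per 1000000 reads in genes, scaled by the TMM method) in captured EE and 2796 to 3401 CPM in captured SH libraries, against 1450 to 1693 CPM in whole EE and 1426 to 1623 CPM in whole SH ganglia. Satellite glia, which wrap the cell bodies, were also present: 7 of their markers summed to 2415 to 2574 CPM in captured EE and 1840 to 2066 CPM in captured SH libraries, against 2042 to 2387 CPM in whole EE and 2358 to 2544 CPM in whole SH ganglia. Captured EE libraries thus lay above whole EE ganglia in these markers, and captured SH libraries below whole SH ganglia, with each preparation scaled on its own. Markers of myelinating Schwann cells (12 genes) were low after capture, at 1040 to 1337 CPM in captured EE and 1162 to 1459 CPM in captured SH libraries, against 6673 to 9675 CPM in whole EE and 7582 to 9308 CPM in whole SH ganglia. Captured EE replicate 1 was sequenced alone of its group in lane 1 and stood apart from the other EE libraries. With it, 3 genes passed the housing test in captured neurons, and without it 602 did, or 3.64% of those tested. Captured SH replicate 2 was likewise alone of its group, in lane 2. Without that SH library 0 genes passed, as without SH replicate 1 or SH replicate 3.

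The 8 genes lie on 8 chromosomes, given here on GRCm38 (the assembly of mm10) from GENCODE vM21. Ret, the shared kinase, lies at chr6:118151745-118197718 on the minus strand, Gfra1 at chr19:58235604-58455909 (minus), Gfra2 at chr14:70890120-70979838 (plus) and Gfra3 at chr18:34689898-34720387 (minus). Ntrk2, which codes for TrkB, lies at chr13:58806569-59133970 (plus), Ntrk3, which codes for TrkC, at chr7:78175959-78738012 (minus), Ngfr at chr11:95568818-95587735 (minus) and Bdnf at chr2:109674700-109727007 (plus). Each count is per gene, so full-length and truncated TrkB or TrkC forms were not told apart. Which of their exons were counted is not stated. Ntrk2 has 10 annotated transcripts, of which 7 code for protein, and Ntrk3 has 20, of which 6 do. An antisense gene shares 416 exon bases with Gfra1 and another shares 896 with Bdnf. Whether the counting used strand is not given in the sources used here, so reads of these pairs may not have been separated.

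**Figure D1:**
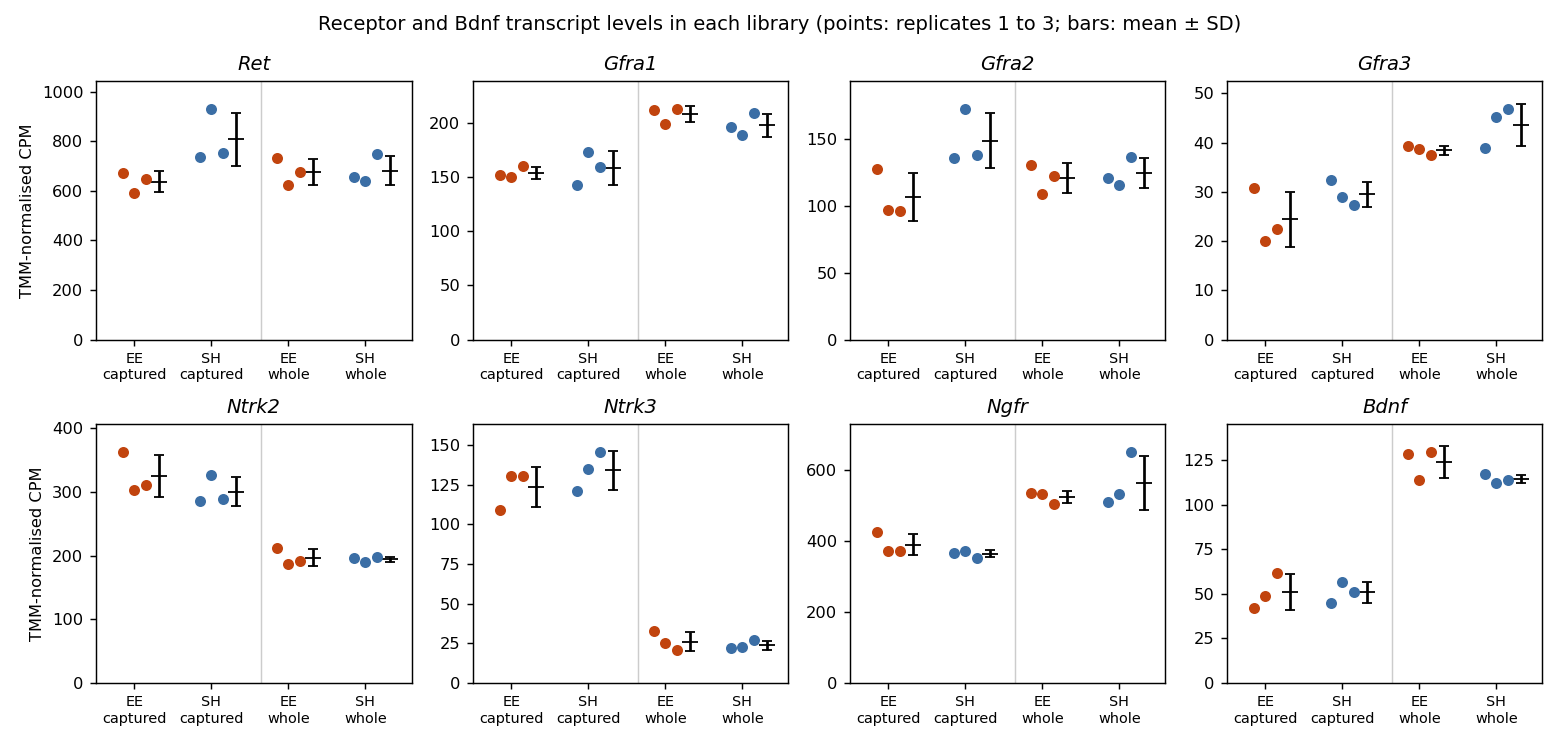
TMM-normalised CPM of each gene (vertical axis, from 0, with its own scale per gene) in the 12 libraries, with captured EE and SH on the left and whole-ganglion EE and SH on the right. Points are replicates 1 to 3 in order and bars are the mean ± SD; Ret and Gfra2 are the 2 genes whose captured EE and SH points do not overlap, and Ntrk3 and Bdnf differ most between the preparations.

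Per length of transcript, Ngfr and Ret were the most abundant of the 8 in every group. Levels between genes are compared here only as CPM per kilobase, using the length that the authors' FPKM values imply. In captured EE neurons Ngfr averaged 112 ± 8.75 and Ret 86.3 ± 5.59 CPM per kilobase (SD, n = 3). In captured SH neurons Ret averaged 109 ± 14.6 and Ngfr 105 ± 2.97 CPM per kilobase, and the ranges of the 2 genes overlapped there. In whole ganglia the order was Ngfr before Ret in both housings, with 151 ± 5.27 and 91.6 ± 7.30 CPM per kilobase in EE and 163 ± 21.9 and 92.3 ± 7.86 CPM per kilobase in SH.

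Below these came the co-receptors and the Trk genes. In captured EE neurons the order was Gfra2 (30.7 CPM per kilobase), Gfra1 (27.9), Ntrk2 (23.5), Ntrk3 (23.4), Gfra3 (12.2) and Bdnf (8.15), with overlapping ranges of Gfra2 and Gfra1 and of Ntrk2 and Ntrk3. In captured SH neurons it was Gfra2 (42.7 CPM per kilobase), Gfra1 (28.7), Ntrk3 (25.4), Ntrk2 (21.7), Gfra3 (14.7) and Bdnf (8.12), with Ntrk3 overlapping both Gfra1 and Ntrk2. Bdnf was the least abundant of the 8 in captured neurons in both housings. In whole EE ganglia the order was Gfra1 (37.8 CPM per kilobase), Gfra2 (34.7), Bdnf (19.8), Gfra3 (19.2), Ntrk2 (14.2) and Ntrk3 (4.94), with overlap of Gfra1 and Gfra2 and of Bdnf and Gfra3. In whole SH ganglia it was Gfra1 (35.9 CPM per kilobase), Gfra2 (35.7), Gfra3 (21.8), Bdnf (18.3), Ntrk2 (14.0) and Ntrk3 (4.50), with overlap of Gfra1 and Gfra2 alone. The per-kilobase levels of Ntrk2 and Ntrk3 are uncertain, because the implied lengths were 13882 and 5270 bases while all annotated exons together span 19292 and 30170 bases. For the other 6 genes the implied length was close to the annotated exons, for example 3465 against 3446 bases for Ngfr.

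Ntrk3 stood out in the captured neurons: its mean was 5.38-fold that of whole ganglia in EE and 6.44-fold in SH. With all 12 libraries scaled together, Ntrk3 averaged 132 CPM in captured neurons and 24.2 CPM in whole ganglia of EE mice, and 145 CPM in captured neurons and 22.0 CPM in whole ganglia of SH mice. TrkC is the neurotrophin-3 receptor of proprioceptors. Summed, the other markers of these cells were not higher after capture. The 6 of them summed to 195 to 434 CPM in captured and 534 to 596 CPM in whole EE ganglia, and to 189 to 271 CPM in captured and 506 to 566 CPM in whole SH ganglia, with each preparation scaled on its own. The 11 general markers of large myelinated neurons summed to 11646 to 15949 CPM in captured and 14945 to 15831 CPM in whole EE ganglia, and to 9168 to 11371 CPM in captured and 16170 to 17195 CPM in whole SH ganglia. Ntrk2 was next after Ntrk3, 1.90-fold higher in captured neurons in EE and 1.79-fold higher in SH. Among all 17412 genes tested over both preparations, 13.1% in EE and 15% in SH were at least 2-fold higher in captured neurons, and Ntrk3 was the one member past that fold in each.

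Bdnf lay at the other end. It codes for the TrkB ligand, which in DRG is made by many peptidergic nociceptors. Its mean was 2.10-fold lower in captured neurons than in whole ganglia in EE (54.7 against 115 CPM) and 1.94-fold lower in SH (54.7 against 106 CPM). At least 2-fold lower values were found for 16.8% of all genes in EE and 17.4% in SH, and Bdnf in EE was the one such member. Gfra3 was 1.36-fold lower in captured neurons in EE and 1.27-fold lower in SH, Ngfr 1.17-fold lower in EE and 1.34-fold lower in SH, and Gfra1 1.17-fold lower in EE and 1.08-fold lower in SH. Ret was 1.09-fold higher in captured neurons in EE and 1.37-fold higher in SH, and Gfra2 1.02-fold higher in EE and 1.39-fold higher in SH. Scaling by library size alone moved the median of all genes by -0.18 on the log2 scale in EE and -0.20 in SH, and under it Ret and Gfra2 turned to slightly lower values in captured than in whole EE ganglia (0.950-fold and 0.893-fold), and Bdnf in SH became 2.26-fold lower. Capture cannot be told apart from the library kit, the RNA quality and the read length, all of which differed between the preparations, so these ratios carry no test.

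**Figure D2:**
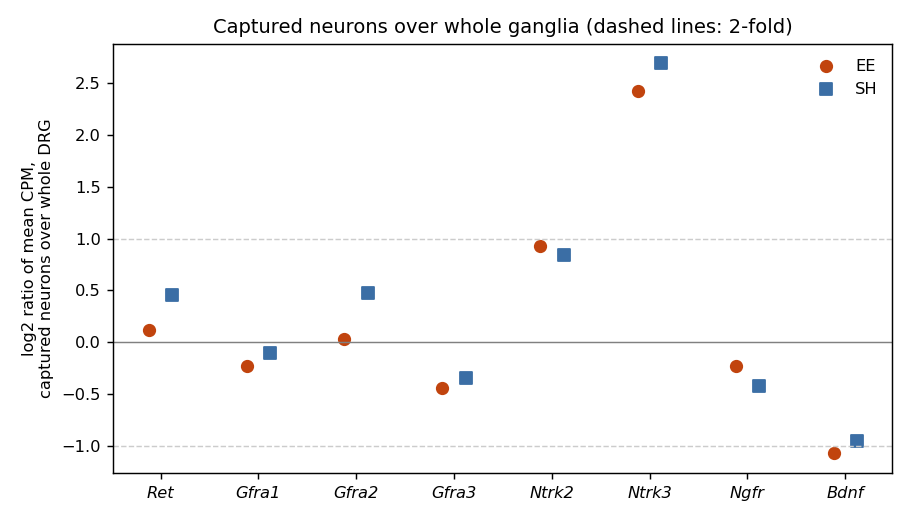
Log2 ratio of mean CPM in captured neurons over whole ganglia (vertical axis; dashed lines mark 2-fold) for each gene (horizontal axis), with EE as circles and SH as squares. Ntrk3 lies far above the others at 2.43 in EE and 2.69 in SH, and Bdnf is the lowest at -1.07 in EE and -0.95 in SH.

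Housing left none of the 8 genes past the threshold in captured neurons (edgeR quasi-likelihood test, Benjamini-Hochberg adjusted p under 0.05 over 16186 genes), where 0.0185% of all genes passed. Ret and Gfra2 passed at an unadjusted p under 0.05, both lower in EE, as did 15.9% of all genes, 8.62% being lower and 7.3% higher. DESeq2 called both genes lower in EE, as it did 3.26% of the genes it adjusted, and limma-voom called neither. Within lane 3 (2 libraries of each housing), where 4.06% of all genes passed and 2.18% were lower, Ret, Gfra2 and Gfra3 passed as lower, and without captured EE replicate 1, where 1.94% were lower, Gfra2 and Gfra3 did. The 2 genes were also the members whose EE and SH libraries did not overlap, a pattern shared by 21.1% of all genes, 10.9% with EE lower. The median log2 fold change of the 8 was -0.081, against -0.00059 over all genes tested.

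Ret had 672, 592 and 647 CPM in the 3 captured EE libraries, against 737, 931 and 753 CPM in the 3 captured SH libraries. Every EE library lay below every SH library, and SH replicate 2, from lane 2, was the highest of the 6. The means were 637 ± 41.3 CPM in EE and 807 ± 108 CPM in SH (SD, n = 3 each), a 1.27-fold lower level in EE with a log2 fold change of -0.34 (SE 0.094, 95% interval -0.55 to -0.13, edgeR adjusted p = 0.151). Within lane 3 alone the log2 fold change was -0.27 and passed (edgeR adjusted p = 0.0217), and over all alternatives tried the adjusted p ran from 0.00328 to 0.421. Without captured SH replicate 2 the log2 fold change was -0.23, the value nearest 0.

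Gfra2, the neurturin co-receptor, differed by more. It had 128, 97.2 and 95.9 CPM in captured EE libraries, against 135, 173 and 138 CPM in captured SH libraries. EE replicate 1 came closest to the SH libraries, and EE replicates 2 and 3 were well below all 3 of them. The means were 107 ± 17.9 CPM in EE and 149 ± 20.8 CPM in SH, 1.39-fold lower in EE, with a log2 fold change of -0.47 (SE 0.126, 95% interval -0.75 to -0.20, edgeR adjusted p = 0.140). Without EE replicate 1 it was -0.62 (edgeR adjusted p = 0.0134), and within lane 3 it was -0.50 (edgeR adjusted p = 0.000982). Over all alternatives the adjusted p ran from 9.95e-06 to 0.452 and the log2 fold change from -0.62 to -0.35. The values 0.452 and -0.35 were those without captured SH replicate 2.

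Gfra3, the artemin co-receptor, overlapped between the housings because of the same EE library. Its level was 30.7, 20.0 and 22.4 CPM in captured EE libraries, against 32.3, 28.9 and 27.4 CPM in captured SH libraries. EE replicates 2 and 3 were below all SH libraries, and EE replicate 1 was above SH replicates 2 and 3. The log2 fold change was -0.27 (SE 0.146, 95% interval -0.59 to 0.06, edgeR adjusted p = 0.407). It was -0.47 without EE replicate 1 (edgeR adjusted p = 0.0340) and -0.49 within lane 3 (edgeR adjusted p = 0.0336), and over all alternatives the adjusted p reached 0.741.

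Gfra1, the GDNF co-receptor, lay near its SH level. It had 151, 150 and 160 CPM in captured EE libraries, against 143, 173 and 159 CPM in captured SH libraries. The EE libraries all lay within the SH range, and the log2 fold change was -0.042 (SE 0.078, 95% interval -0.22 to 0.13, edgeR adjusted p = 0.836).

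**Figure D3:**
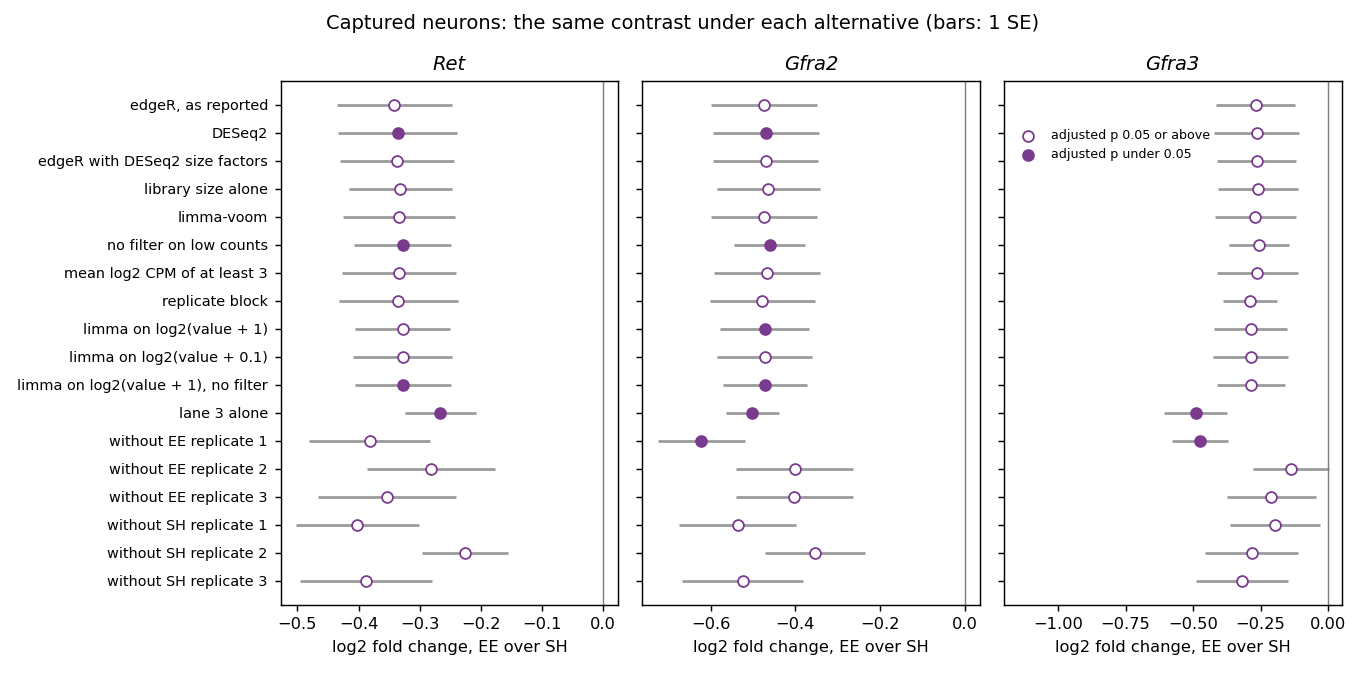
Log2 fold change of Ret, Gfra2 and Gfra3 in captured neurons, EE over SH (horizontal axes, with 1 SE), as reported and under each alternative (vertical axis), filled where the adjusted p was under 0.05. All points lie below 0 for the 3 genes; lane 3 alone is the one setting in which all 3 are filled.

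The log2 fold changes of the Trk receptor genes and Ngfr in captured neurons lay between -0.12 and 0.12, and none passed. Ntrk2 had 363, 303 and 311 CPM in captured EE libraries, against 286, 327 and 289 CPM in captured SH libraries. EE replicate 1 was the highest of the 6, and the other libraries overlapped. Its log2 fold change was 0.12 (SE 0.085, 95% interval -0.07 to 0.31, edgeR adjusted p = 0.546).

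Ntrk3 had 109, 131 and 131 CPM in captured EE libraries, against 121, 135 and 146 CPM in captured SH libraries. EE replicate 1, highest for Ntrk2, was lowest for Ntrk3. The log2 fold change was -0.12 (SE 0.093, 95% interval -0.33 to 0.09, edgeR adjusted p = 0.571). Ngfr, whose product p75 is shared by all neurotrophins and is made by glia as well as neurons, had 424, 371 and 372 CPM in captured EE libraries, against 367, 372 and 352 CPM in captured SH libraries. EE replicate 1 was again the highest and the others overlapped, with a log2 fold change of 0.10 (SE 0.070, 95% interval -0.06 to 0.25, edgeR adjusted p = 0.534).

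Bdnf was at the same mean level in both housings after capture. It had 42.1, 49.0 and 61.8 CPM in captured EE libraries, against 44.6, 56.5 and 51.1 CPM in captured SH libraries. The EE libraries spanned the whole SH range, and the means were 51.0 ± 9.99 CPM in EE and 50.8 ± 5.97 CPM in SH. The 95% interval of the log2 fold change ran from -0.30 to 0.31 (edgeR adjusted p = 0.994), so differences of that size were not detectable here.

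In whole ganglia the log2 fold changes of the 8 genes, EE over SH, lay between -0.18 and 0.13. None passed the edgeR test over 15845 genes, where 0.00631% of all genes passed, none passed with DESeq2 or limma-voom, and the edgeR adjusted p was 1.00 for each. No member had separated groups, against 7.48% of all genes. One member, Gfra3, reached an unadjusted p under 0.05 with edgeR, lower in EE, as did 2.9% of all genes, 1.55% being lower. The median log2 fold change of the 8 was 0.0015, against 0.0028 over all genes tested. With the lane as a block 32 genes passed (0.202%), none of them a member, and the smallest adjusted p of a member was 0.806 (edgeR).

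Ret had 730, 623 and 674 CPM in whole EE ganglia, against 655, 642 and 748 CPM in whole SH ganglia. The groups overlapped fully, and the log2 fold change was -0.013 (SE 0.078, 95% interval -0.18 to 0.15). Gfra2 had 131, 109 and 123 CPM in whole EE ganglia, against 121, 115 and 137 CPM in whole SH ganglia. It overlapped in the same way, with a log2 fold change of -0.043 (SE 0.084, 95% interval -0.22 to 0.14). Gfra1 had 212, 199 and 213 CPM in whole EE ganglia, against 196, 188 and 209 CPM in whole SH ganglia, with a log2 fold change of 0.072 (95% interval -0.07 to 0.22).

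Gfra3 was the member nearest to a difference in whole ganglia. It had 39.2, 38.6 and 37.4 CPM in whole EE ganglia, against 38.8, 45.2 and 46.9 CPM in whole SH ganglia. SH replicate 1 lay among the EE libraries and the other SH libraries lay above them. The log2 fold change was -0.18 (SE 0.082, 95% interval -0.36 to -0.01, edgeR unadjusted p = 0.0438), 1.13-fold lower in EE.

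Ntrk2 had 211, 187 and 191 CPM in whole EE ganglia, against 196, 190 and 197 CPM in whole SH ganglia, and its log2 fold change was 0.015 (95% interval -0.13 to 0.16). Ntrk3 had 32.4, 25.2 and 20.5 CPM in whole EE ganglia, against 21.7, 22.3 and 27.1 CPM in whole SH ganglia. Both genes overlapped between housings, and Ntrk3, the least abundant, had the widest interval of the 8 in whole ganglia (log2 fold change 0.13, 95% interval -0.16 to 0.42). Ngfr had 535, 533 and 503 CPM in whole EE ganglia, against 509, 533 and 651 CPM in whole SH ganglia, and SH replicate 3 was the highest. Its log2 fold change was -0.11 (95% interval -0.29 to 0.07), and 0.0078 without that library. Bdnf had 129, 114 and 130 CPM in whole EE ganglia, against 117, 112 and 114 CPM in whole SH ganglia, with a log2 fold change of 0.11 (95% interval -0.04 to 0.27).

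**Figure D4:**
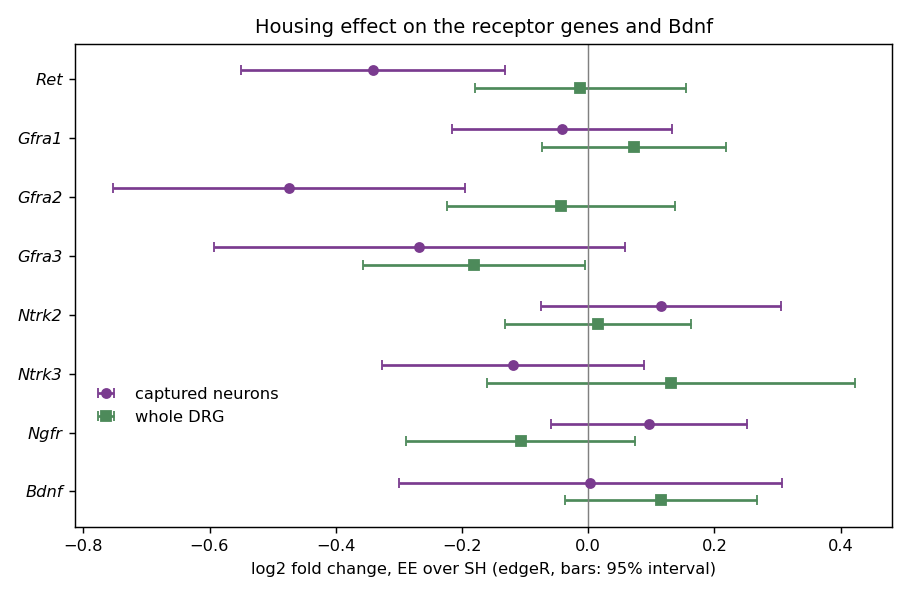
Log2 fold change of each gene, EE over SH (horizontal axis, edgeR, bars are 95% intervals), in captured neurons (circles) and whole ganglia (squares). The captured intervals of Ret (-0.55 to -0.13) and Gfra2 (-0.75 to -0.20) lie below 0 without an adjusted p under 0.05, and those of the other 6 genes in captured neurons include 0.

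Whether the housing effect differed between the preparations was tested directly, as an interaction over all 12 libraries. None of the 8 genes passed (edgeR, 17412 genes), as no gene did (0%), and none passed with DESeq2 or limma-voom. Gfra2 and Ret were under an unadjusted p of 0.05, as were 11.7% of all genes, 6.39% in that negative direction. For Gfra2 the effect in captured neurons minus that in whole ganglia was -0.44 on the log2 scale (SE 0.164, edgeR adjusted p = 0.322), and for Ret it was -0.34 (SE 0.134, edgeR adjusted p = 0.343). The other 6 differences lay between -0.26 (Ntrk3) and 0.19 (Ngfr), with edgeR adjusted p from 0.553 to 0.884. With no filter on low counts Gfra2 passed (edgeR adjusted p = 0.0193, log2 difference -0.44), as did 0.797% of all genes in that direction, and over its alternatives the adjusted p ran up to 0.641.

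Ratios of 2 members within a library do not depend on its scaling. The ratio of Gfra2 to Gfra1 counts was 0.843, 0.649 and 0.599 in captured EE libraries, against 0.950, 0.997 and 0.868 in captured SH libraries. All EE ratios were below all SH ratios, a log2 difference of -0.44 (exact two-sided permutation p = 0.1, the smallest that 3 against 3 allows, adjusted p = 0.6 over 8 ratio tests). In whole ganglia the same ratio differed by -0.12 with overlap (exact permutation p = 0.2). The ratio of Ntrk3 to Ntrk2 was 0.300, 0.432 and 0.421 in captured EE libraries, against 0.424, 0.414 and 0.504 in captured SH libraries, and the groups overlapped (exact permutation p = 0.5). The other 5 of the 8 ratio tests, of Ntrk3 to Ntrk2 in whole ganglia, and of Gfra3 to Gfra2 and Ngfr to Ntrk2 in both preparations, also overlapped, with exact permutation p from 0.3 to 0.9.

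Each receptor was then set beside other markers of the neurons that carry it. In captured neurons the markers of Mrgprd nociceptors and C-LTMR, kinds with Ret and Gfra2, were lower in EE. Those of A-beta mechanoreceptors, which also carry Ret, went the other way from both Ret and Gfra2, as given below. All 9 markers of Mrgprd nociceptors had separated groups with EE below SH, against 10.9% of all genes. All 9 markers also had an unadjusted p under 0.05, against 8.62% of all genes in that direction. Their median log2 fold change was -0.51, close to that of Gfra2 (-0.47), and none passed the edgeR adjustment. Runx1, a transcription factor that sets the non-peptidergic fate, averaged 115 ± 10.3 CPM in EE and 178 ± 22.7 CPM in SH (SD, n = 3 each; edgeR adjusted p = 0.0898). Plxnc1, a semaphorin receptor, averaged 485 ± 31.0 CPM in EE and 690 ± 85.2 CPM in SH (edgeR adjusted p = 0.0898). With DESeq2, within lane 3, and without EE replicate 1, 8 of the 9 passed, all lower. Of all genes, 3.26% of those adjusted were called lower with DESeq2, 2.18% within lane 3 and 1.94% without EE replicate 1. In bulk samples fewer cells of a kind and less of their RNA per cell cannot be told apart.

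Markers of C-LTMR, which also carry Ret and Gfra2, were likewise lower in captured EE neurons, with a median of -0.58 over 6 genes. All 6 had an unadjusted p under 0.05, against 8.62% of all genes in that direction, 3 had separated groups lower in EE, against 10.9% of all genes, and 0 passed the edgeR adjustment. Cacna1i, a T-type calcium channel, averaged 6.10 ± 1.47 CPM in EE and 12.1 ± 2.46 CPM in SH, and Fam19a4, a secreted protein of these cells, averaged 45.4 ± 11.9 CPM in EE and 65.6 ± 4.96 CPM in SH. Within lane 3 and without EE replicate 1, 6 of 6 passed as lower, where 2.18% and 1.94% of all genes did. With DESeq2 2 passed as lower, as did 3.26% of the genes it adjusted. Itch neurons (pruriceptors), some kinds of which carry Gfra1, had 5 of 10 markers under an unadjusted p of 0.05, all lower in EE (8.62% of all genes), and a median of -0.40. None passed with edgeR, while 5 passed as lower within lane 3, and 4 did without EE replicate 1 and with DESeq2. The shares of all genes called lower were 2.18%, 1.94% and 3.26% in these fits. Il31ra, the interleukin 31 receptor, averaged 29.0 ± 6.83 CPM in EE and 55.5 ± 6.32 CPM in SH, and Cysltr2, a leukotriene receptor, averaged 12.6 ± 2.40 CPM in EE and 22.7 ± 2.63 CPM in SH (edgeR adjusted p = 0.0898 for each). Gfra1 itself, at -0.042, lay near 0, and the difference between it and these markers was not tested. Summed, the pruriceptor markers were at 174 to 213 CPM in EE and 261 to 286 CPM in SH.

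Peptidergic nociceptors, the main site of Gfra3, had a median of -0.013 over 7 markers. Higher in EE at an unadjusted p under 0.05 were 7.3% of all genes and 1 of these markers. That was Calca, which codes for the peptide CGRP, at 511 ± 81.3 CPM in captured EE and 427 ± 43.0 CPM in captured SH neurons. Kit, a receptor kinase, averaged 92.7 ± 13.1 CPM in captured EE and 101 ± 11.0 CPM in captured SH neurons. Gfra3 lay below all 7 of these markers in log2 fold change. Within lane 3 the median of the markers was -0.21. There 2 of the 7, Calcb and Trpv1, passed as lower in EE, as did Gfra3 and 2.18% of all genes. Without EE replicate 1 the median was -0.25 and Calcb passed as lower, as did 1.94% of all genes.

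Markers of large neurons had positive log2 fold changes. Those of proprioceptors had a median of 0.66 in captured neurons, with 3 of 6 under an unadjusted p of 0.05, all higher in EE (7.3% of all genes), and 0 past the edgeR adjustment. Pvalb, a calcium-binding protein of proprioceptors, averaged 63.4 ± 30.9 CPM in EE and 35.4 ± 1.27 CPM in SH, and Esrrg, a nuclear receptor, 64.3 ± 22.8 CPM in EE and 41.3 ± 9.97 CPM in SH. The groups of all 6 overlapped. Within lane 3, where 305 of 16199 genes were called higher, 4 of the markers passed as higher (Esrrg, Etv1, Pvalb and Spp1). The same 4 did without EE replicate 1, where 281 of 16520 genes were called higher. Ntrk3, the receptor of proprioceptors, had a log2 fold change of -0.12 and the opposite sign to all 6 markers, a difference that was not tested.

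General markers of large myelinated neurons had a median of 0.43 over 11 genes, of which 9 had an unadjusted p under 0.05, against 7.3% of all genes in that direction. Separated groups, all higher in EE, were found for 5 of them, against 21.1% of all genes in either direction, 10.9% being lower. Nefl, the light neurofilament subunit, averaged 6136 ± 681 CPM in captured EE and 4426 ± 502 CPM in captured SH neurons (edgeR adjusted p = 0.105), and Scn1a, a sodium channel, 428 ± 40.8 CPM in captured EE and 317 ± 35.5 CPM in captured SH neurons (edgeR adjusted p = 0.120). None of the 11 passed with edgeR, 6 passed with DESeq2, and 10 passed within lane 3 and again without EE replicate 1, all higher. Among all genes, those called higher numbered 216 of 9556 with DESeq2, 305 of 16199 within lane 3 and 281 of 16520 without EE replicate 1. The 5 A-delta mechanoreceptor markers, beside Ntrk2, had a median of 0.061 and none under an unadjusted p of 0.05. Among them were Cntnap2, a cell adhesion protein, at 277 ± 33.4 CPM in captured EE and 254 ± 10.8 CPM in captured SH neurons, and Cacna1h at 38.2 ± 4.59 CPM in captured EE and 42.1 ± 4.29 CPM in captured SH neurons. Without EE replicate 1 their median was -0.23 and within lane 3 -0.16. All 3 markers of A-beta mechanoreceptors, which also carry Ret, had positive log2 fold changes, with a median of 0.18. None had an unadjusted p under 0.05. Maf, a transcription factor of these cells, passed as higher within lane 3 and without EE replicate 1. All 3 had the opposite sign to Ret (-0.34) and to Gfra2 (-0.47), and these differences were not tested.

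**Figure D5:**
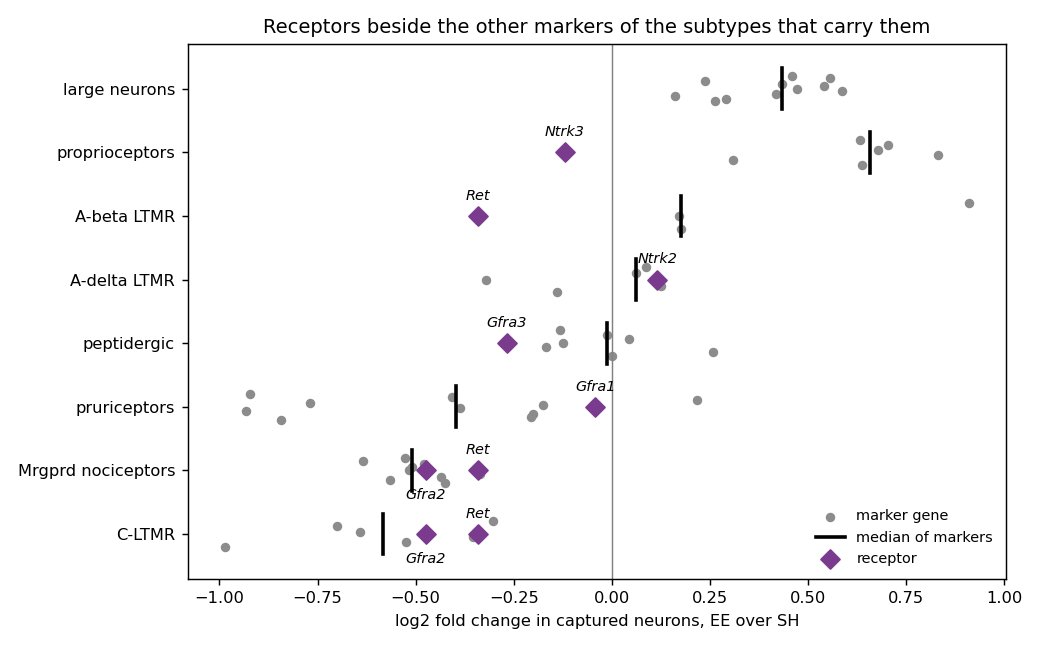
Log2 fold change in captured neurons, EE over SH (horizontal axis), of markers of 8 kinds of neuron (grey points, black line at the median). Diamonds are receptors that the kinds carry, with none drawn for large neurons. Ret and Gfra2 lie with the markers of Mrgprd nociceptors and C-LTMR, all below 0. In the A-beta row Ret, at -0.34, lies below all 3 markers, which are above 0, and Ntrk3 at -0.12 lies below every proprioceptor marker.

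Of 7 satellite glia markers in captured neurons, 1 passed, against 0.0185% of all genes, and the median was 0.35. An unadjusted p under 0.05 and separated groups were found for 4, all higher in EE. Of all genes, 7.3% were higher at that p, and 21.1% had separated groups in either direction, 10.9% being lower. Fabp7, a fatty acid binding protein of satellite glia, rose to 269 ± 37.6 CPM in captured EE neurons, against 154 ± 2.97 CPM in captured SH neurons (log2 fold change 0.80, edgeR adjusted p = 0.0322). Within lane 3, without EE replicate 1 and with DESeq2, 3 of the 7 passed as higher (Apoe, Fabp7 and Slc1a3). Genes called higher in these fits numbered 305 of 16199, 281 of 16520 and 216 of 9556. Schwann cell markers had 0 of 12 myelinating and 0 of 4 non-myelinating genes past the edgeR threshold, with medians of -0.084 and -0.10. With DESeq2 1 of each list passed as lower in EE, Pmp22 (myelinating) and L1cam (non-myelinating), as did 3.26% of the genes it adjusted. The summed levels of the 11 large neuron and the 9 Mrgprd nociceptor markers, given above, did not overlap between captured EE and captured SH libraries. No marker of these lists was at 0. The part of the captured cell mix in the values of Ret, Gfra2 and Gfra3 was not tested. In whole ganglia, which hold all cells, the medians were 0.054 for Mrgprd nociceptor, 0.037 for C-LTMR, 0.10 for pruriceptor, -0.040 for proprioceptor, -0.036 for large neuron and -0.14 for satellite glia markers, and no gene of these lists passed. Of the 11 large neuron markers, 3 had an unadjusted p under 0.05 in whole ganglia, all lower in EE, against 1.55% of all genes. Separated groups lower in EE were found there for 3 of the 11, against 4.29% of all genes. Nefl averaged 4559 ± 87.1 CPM in whole EE and 5062 ± 108 CPM in whole SH ganglia (log2 fold change -0.15, edgeR adjusted p = 1.00).

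The partners of the receptors were read next. Of 7 further ligand genes, 2 were measured in whole ganglia and 1 in captured neurons. Ntf3, which codes for the TrkC ligand neurotrophin-3, averaged 0.976 ± 0.283 CPM in whole EE and 0.632 ± 0.048 CPM in whole SH ganglia. It averaged 0.852 ± 0.487 CPM in captured EE and 0.863 ± 0.131 CPM in captured SH neurons. Its groups were separated in whole ganglia, as were those of 7.48% of all genes, with an edgeR adjusted p of 1.00 (unadjusted p = 0.101). The means of all groups rest on few reads. The genes for neurotrophin-4 (Ntf5), GDNF, neurturin, artemin and persephin had at most 10 reads in any library and could not be compared at this depth.

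Of 10 further receptors and co-receptors, 9 were tested and none passed in either preparation. In captured neurons 2 had an unadjusted p under 0.05, both higher in EE (7.3% of all genes), and the median was 0.14. Sorcs3, a sortilin-family receptor, averaged 34.9 ± 3.07 CPM in captured EE and 29.9 ± 1.05 CPM in captured SH neurons (log2 fold change 0.23), and Gfra4, the persephin co-receptor, 7.33 ± 0.469 CPM in captured EE and 5.69 ± 0.958 CPM in captured SH neurons (0.36). Gfra4 had the opposite sign in whole ganglia, at 12.9 ± 0.976 CPM in EE and 14.5 ± 0.223 CPM in SH. Lingo1, a partner of p75, averaged 47.2 ± 4.61 CPM in whole EE and 53.4 ± 2.52 CPM in whole SH ganglia.

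Adaptors and kinases that bind Trk, p75 or Ret (25 tested) had 6 genes under an unadjusted p of 0.05 in captured neurons, all lower in EE, where 8.62% of all genes were, and 10 with separated groups lower, where 10.9% of all genes were, against 1 higher. Their median was -0.10 and none passed. Gab1, a docking protein, averaged 53.3 ± 0.443 CPM in captured EE and 65.8 ± 4.67 CPM in captured SH neurons (log2 fold change -0.30, edgeR adjusted p = 0.129), and its relative Gab2 51.9 ± 3.63 CPM in captured EE and 64.5 ± 8.31 CPM in captured SH neurons (-0.31). With DESeq2 Gab1 passed as lower, as did 3.26% of the genes that DESeq2 adjusted. In whole ganglia 1 of the 25 had an unadjusted p under 0.05, lower in EE, as did 1.55% of all genes, and the median was -0.011. The lowest p values there belonged to Frs3, an FGF receptor substrate that binds Trk, at 11.4 ± 0.221 CPM in EE and 13.6 ± 1.16 CPM in SH, and to Shc4, at 62.1 ± 4.75 CPM in EE and 69.8 ± 4.76 CPM in SH.

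Enzymes of the Ras/MAPK and PI3K/Akt cascades (23 tested) gave 5 genes under an unadjusted p of 0.05 in captured neurons, all lower in EE (8.62% of all genes), with a median of -0.046 and none past the adjustment. Mapk3, which codes for the kinase ERK1, averaged 291 ± 9.33 CPM in captured EE and 327 ± 14.8 CPM in captured SH neurons (log2 fold change -0.17, edgeR adjusted p = 0.228). In whole ganglia the median was 0.023 and none was under an unadjusted p of 0.05. The smallest p values belonged there to Creb1, at 54.7 ± 3.38 CPM in EE and 49.9 ± 3.11 CPM in SH, and to Pik3r2, at 37.2 ± 2.76 CPM in EE and 41.2 ± 4.74 CPM in SH.

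Genes known to be induced by neurotrophin or ERK signalling (17 tested) had a median of 0.18 in captured neurons and -0.051 in whole ganglia, with none passing in either. The captured median was 0.021 within lane 3 and 0.11 without EE replicate 1. Fos, an immediate early gene, averaged 5.22 ± 0.991 CPM in captured EE and 3.50 ± 0.270 CPM in captured SH neurons (log2 fold change 0.58, edgeR adjusted p = 0.195). It was the 1 gene of the list under an unadjusted p of 0.05 there, where 7.3% of all genes were higher at that p. Dusp4, a MAPK phosphatase, averaged 5.48 ± 0.424 CPM in captured EE and 4.40 ± 0.727 CPM in captured SH neurons. In whole ganglia Egr3 was low in both housings, at 0.665 ± 0.128 CPM in EE and 1.45 ± 0.468 CPM in SH (log2 fold change -1.15, edgeR adjusted p = 1.00), and Nr4a1 averaged 28.0 ± 6.30 CPM in EE and 34.0 ± 4.35 CPM in SH. Within lane 3 and without EE replicate 1, Etv1, a factor of proprioceptors, passed as higher in captured EE neurons. Genes called higher in these fits numbered 305 of 16199 and 281 of 16520.

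Across the 12 libraries, with each preparation centred on its own mean, Ret and Gfra2 varied together (Pearson r = 0.939, 0.936 over the 6 captured and 0.976 over the 6 whole libraries). Gfra2 and Gfra3 reached 0.703 (0.775 over the captured and 0.344 over the whole libraries). Gfra1 and Bdnf reached 0.718 (0.731 over the captured and 0.744 over the whole libraries). In captured neurons Ntrk2 and Ngfr reached 0.907, and Ntrk3 and Ngfr -0.880, both with EE replicate 1 at an end. These values are descriptions, because libraries share their housing, lane and cell mix. Among 9587 well-expressed genes, those most like Ret were Ptprt (r = 0.980), Scn10a, a sodium channel of nociceptors (0.980), and Lrrc8d (0.979), and those most like Gfra2 were Syt9 (0.985), Stt3b (0.981) and Apba1 (0.976). For Gfra3 they were Setd6 (0.962), Trim35 (0.940) and Stx2 (0.921), and for Gfra1 4933426M11Rik (0.933), Hivep2 (0.915) and Amigo1 (0.887). For Ntrk2 they were Enpp5 (0.918), Prps1 (0.904) and Fam49a (0.895), for Ntrk3 Map3k9 (0.924), Cep97 (0.875) and Sv2c (0.873), for Ngfr Ptprn (0.953), Atcay (0.925) and Hgs (0.907), and for Bdnf Pcyt1b (0.916), Kcnq3 (0.913) and Ankrd40 (0.905).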

How the data were processed

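The deposited counts are whole numbers of reads by gene symbol, with 1 table for each preparation. Per the labels' protocols, whole-ganglion libraries used a TruSeq mRNA kit and captured ones a RiboZero ScriptSeq V2 kit. The submitters' processing notes name TopHat2 2.0.12, HTSeq 0.6.0, edgeR 3.8.6 and mm10, without roles. The authors' FPKM values of whole ganglia were proportional to the counts within 1%. The authors' second table for captured neurons held a signal equal to counts times 1 constant per library, with no length division, and was used as scaled counts. The 5 summary rows were left out of library sizes; reads outside any feature made up 28.0 to 36.3% in captured and 47.0 to 47.6% in whole libraries, and reads with several mapping places 11.0 to 15.2% in captured and 8.49 to 8.99% in whole libraries. More than 1 FPKM entry was found for 622 names, and the first by identifier was used.

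Each preparation was fitted alone with edgeR 4.0.16 (R 4.3.3) after filterByExpr and TMM, with a quasi-likelihood test over all genes and Benjamini-Hochberg adjustment at 0.05. The interaction was fitted over 12 libraries. Alternatives were DESeq2 1.42.0, limma-voom and limma 3.58.1 on log2(value + 1) or + 0.1, other scalings and filters, the omission of each library in turn, a block for the replicate number, and lane 3 only. Lane 3 only, the block and the omission of captured EE replicate 1 were added for the lists after seeing the data. The members and lists were chosen with earlier results of these data known. Named genes were all members, the 2 of each list with the smallest p per preparation, and the 3 most correlated genes per member; the text names some of these, and some genes of the lists are not reported here. Scripts were tested on simulated counts. No libraries of a group were duplicates (chi-square per degree of freedom 4.02 to 22.2).

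Same-numbered whole-ganglion libraries share a lane in the labels, which pairs them; their deviations correlated at 0.357, 0.345 and -0.031. Positions are from GENCODE vM21.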

Additional observations from a re-analysis of the deposited data

How the results depend on the processing

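Of 408 values of single members under alternatives, 379 kept direction and side of the threshold, 13 newly passed and 16 changed sign. Values that turned were Gfra1 in captured neurons within lane 3 (0.039), and Bdnf in captured neurons with limma-voom (-0.016) and with the replicate block (-0.0050). On leaving out 1 library the log2 fold changes ran, in whole ganglia, from -0.039 to 0.048 for Ntrk2, -0.049 to 0.28 for Ntrk3, -0.18 to 0.0078 for Ngfr, -0.071 to 0.059 for Ret and -0.10 to 0.030 for Gfra2. They ran, in captured neurons, from -0.11 to 0.027 for Gfra1 and -0.16 to 0.13 for Bdnf, and for the difference of the housing effect from -0.30 to 0.027 for Gfra3 and -0.29 to 0.0050 for Bdnf. The causes were not tested.

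Genes past the threshold in captured neurons numbered 3, and 528 with DESeq2, 902 with no filter, 1 with a mean log2 CPM of at least 3, 0 with the block, 168 with limma on log2(value + 1), 55 with + 0.1, 306 without its filter and 658 within lane 3 (0 to 602 on leaving out 1 library, the highest without EE replicate 1). Members past it there numbered 0, and 2 with DESeq2 and with no filter, 1 with limma + 1, 2 with limma without its filter and 3 within lane 3 (0 to 2 on leaving out 1 library). In whole ganglia 1 gene passed, and 0 with library size alone and with each of the 3 limma fits on FPKM, 48 with no filter and 32 with the block (0 to 2 on leaving out 1 library). For the difference 0 genes passed, and 160 with DESeq2, 457 with no filter (1 a member) and 1 with a mean log2 CPM of at least 3 (0 to 233). Among same-numbered captured libraries only those of replicate 3 share a lane, and that lane also holds EE replicate 2 and SH replicate 1. The deviations of same-numbered captured libraries correlated at 0.231, -0.140 and 0.247. The block there thus has no pairing by lane behind it for replicates 1 and 2. Separated ratios numbered 1, and 1 to 2 on leaving out 1 library. Members at least 2-fold apart between preparations in SH numbered 1, and 2 with library size alone. Besides the calls given with each list, lane 3 alone called L1cam, Scn7a, Lum and Rgs5 lower in captured EE neurons, and the omission of captured EE replicate 1 called Rgs5 lower; these markers of other cells are named for those calls, after their values were seen. Depth limits 5 of the ligand genes, at 10 reads or fewer in any library.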
